A study of Mus musculus with 16 samples.

Results

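The genes described here are 41 genes of cell proliferation and DNA replication, named in a fixed list of cell cycle genes, and all 41 were found by symbol among the 22609 genes of each library. All 41 passed the filter on low counts and were among the 14200 genes tested. They fall into 8 roles: the replicative helicase (6 genes), nucleotide supply and the replication clamp (5), cyclins and cell cycle transcription factors (5), mitotic and checkpoint kinases (7), the ubiquitin ligase of mitotic exit (3), the centromere, kinetochore and chromosomal passenger complex (7), the spindle and cytokinesis (6), and chromosome structure (2).

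RNA came from lumbar dorsal root ganglia (L3 to L5) of male mice aged 8 to 16 weeks, dissociated and sorted by flow cytometry for cells that had taken up a fluorescent wheat germ agglutinin tracer injected into the paw, so the sorted cells were meant to be sensory neurons. All mice carried floxed alleles of the lymphotoxin-beta receptor gene, either alone (fl/fl) or with a Cre recombinase driven by Nav1.8, a sodium channel of nociceptors (Nav1.8/LTbR CKO, here CKO), so deletion is limited to cells that have expressed Nav1.8. Each genotype received paclitaxel (PTX, 6 mg per kg in 3 intraperitoneal injections 2 days apart) or vehicle, which the labels call water, and the tracer and the collection followed 16 and 18 days after the last injection. The labels give 4 libraries in each of the 4 groups, whereas the design text gives 3, and the treatment text on every library, vehicle included, describes PTX. No label ties the libraries of a group to separate animals, so the spread behind each p-value is that between libraries and may be technical. Library titles carry dates whose meaning the labels do not give. PTX replicates 1 and 2 of each genotype share an earlier date and replicates 3 and 4 the next day, vehicle replicates 1 and 2 share a date in the following month and replicates 3 and 4 the day after it. Date and treatment cannot be told apart across treatments, but the 2 dates within a treatment can be compared, with genotype balanced.

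Libraries held 7906504 to 11668007 gene counts. The share of alignments outside annotated genes was 13.7 to 17.5 percent in the 4 libraries of the earlier PTX date and 18.2 to 25.4 percent in the other 12, with no overlap, and its part in the results below was not tested. Ltbr, the gene with the floxed alleles, overlapped between genotype labels, at 5.88 to 28.4 CPM in CKO and 6.06 to 15.6 CPM in fl/fl under PTX, and at 32.3 to 98.9 and 42.4 to 51.4 CPM under vehicle, so genotype names are those of the labels. CPM are counts scaled to a common effective library size (TMM). They are not corrected for gene length, so levels are compared between libraries and not between genes.

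Cells that divide copy their DNA in S phase and separate it in mitosis. Before S phase the MCM proteins are loaded on origins as a helicase, and ribonucleotide reductase supplies deoxynucleotides. In mitosis, cyclin B with its kinase drives entry, Aurora and Polo-like kinases and the kinetochore attach chromosomes to the spindle, and the anaphase-promoting complex ends the phase by marking cyclins for destruction. Mature sensory neurons do not divide, whereas satellite glia and Schwann cells can, and early neutrophil precursors of the bone marrow divide before they become mature neutrophils, which do not. The genes of replication are largely switched on through E2F sites, and those of mitosis through the cell cycle homology region together with CCAAT boxes.

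Promoters are shown for the 5 members whose call between the PTX dates held in every alternative run (Top2a, Ube2c, Mki67, Cenpa and Nusap1) and for Mcm6, the most abundant helicase member, which was not called. Each is the 120 bases that end just before the first start of the gene, 5′ to 3′ on the strand of the gene, from RefSeq on GRCm38.p6, an assembly other than the mm9 build of the counts. Capitals mark matches on either strand to the cell cycle homology region (TTTGAA or TTCGAA, reversed TTCAAA), to CCAAT (reversed ATTGG) and to the E2F site (TTTCCCGC, TTTCGCGC, TTTGCCGC or TTTGGCGC), where overlapping matches run together.
Top2a (chr11:99024190-99024309, minus strand): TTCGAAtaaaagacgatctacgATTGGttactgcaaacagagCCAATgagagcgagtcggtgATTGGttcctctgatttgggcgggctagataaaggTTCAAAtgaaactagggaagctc
Ube2c (chr2:164769809-164769928, plus strand): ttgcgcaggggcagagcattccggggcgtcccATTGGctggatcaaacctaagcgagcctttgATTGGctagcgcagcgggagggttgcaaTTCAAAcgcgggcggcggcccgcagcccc
Mki67 (chr7:135716380-135716499, minus strand): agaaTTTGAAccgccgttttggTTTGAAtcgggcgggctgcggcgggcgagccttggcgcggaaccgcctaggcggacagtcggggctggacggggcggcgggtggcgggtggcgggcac
Cenpa (chr5:30666766-30666885, plus strand): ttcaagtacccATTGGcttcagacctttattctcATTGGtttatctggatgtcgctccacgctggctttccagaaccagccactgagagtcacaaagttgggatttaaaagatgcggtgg
Nusap1 (chr2:119618178-119618297, plus strand): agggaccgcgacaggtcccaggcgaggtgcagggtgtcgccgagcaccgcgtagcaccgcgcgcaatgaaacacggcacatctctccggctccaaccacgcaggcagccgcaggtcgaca
Mcm6 (chr1:128359706-128359825, minus strand): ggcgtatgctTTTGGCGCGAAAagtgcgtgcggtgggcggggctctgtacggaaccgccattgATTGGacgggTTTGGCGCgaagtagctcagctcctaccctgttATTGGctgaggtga
Top2a, Ube2c and Mki67 hold the letters of the homology region in this stretch, Cenpa holds only CCAAT, Nusap1 holds none of the letters searched, and Mcm6 holds E2F letters and CCAAT. In the 250 bases before the start, CCAAT was found in 27 of the 36 members with an entry (75 percent) and in 34.5 percent of all 27025 promoters in the table. The homology region was found in 9 members (25 percent), each with CCAAT as well, 7 of them among the 26 mitosis members with an entry, against 17.4 percent of all promoters, and 6.21 percent of all promoters hold both. E2F letters were found in 3 of 10 replication members (30 percent), in 0 of 26 mitosis members, and in 1.91 percent of all promoters. These are matches of letters and were not tested as binding sites.

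The 41 genes were lowest in the 4 libraries of the earlier PTX date. Their summed level there was 145 and 193 CPM in fl/fl and 109 and 136 CPM in CKO (mean 145.5 ± 35.1, SD, n = 4). On the later PTX date it was 699 and 352 CPM in fl/fl and 1378 and 757 CPM in CKO (797 ± 427, n = 4). In vehicle libraries it was 1207, 1287, 668 and 515 CPM in fl/fl and 815, 853, 1294 and 1470 CPM in CKO. The 4 earlier PTX libraries lay below all 12 others, while the later PTX libraries overlapped with the vehicle libraries. By gene, the mean over the 4 libraries was lowest on the earlier PTX date for 39 of the 41 members, Aurka and Ttk being the exceptions. The members took 0.0126 to 0.0202 percent of gene counts in these 4 libraries and 0.0376 to 0.139 percent in the other 12.

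**Figure D1:**
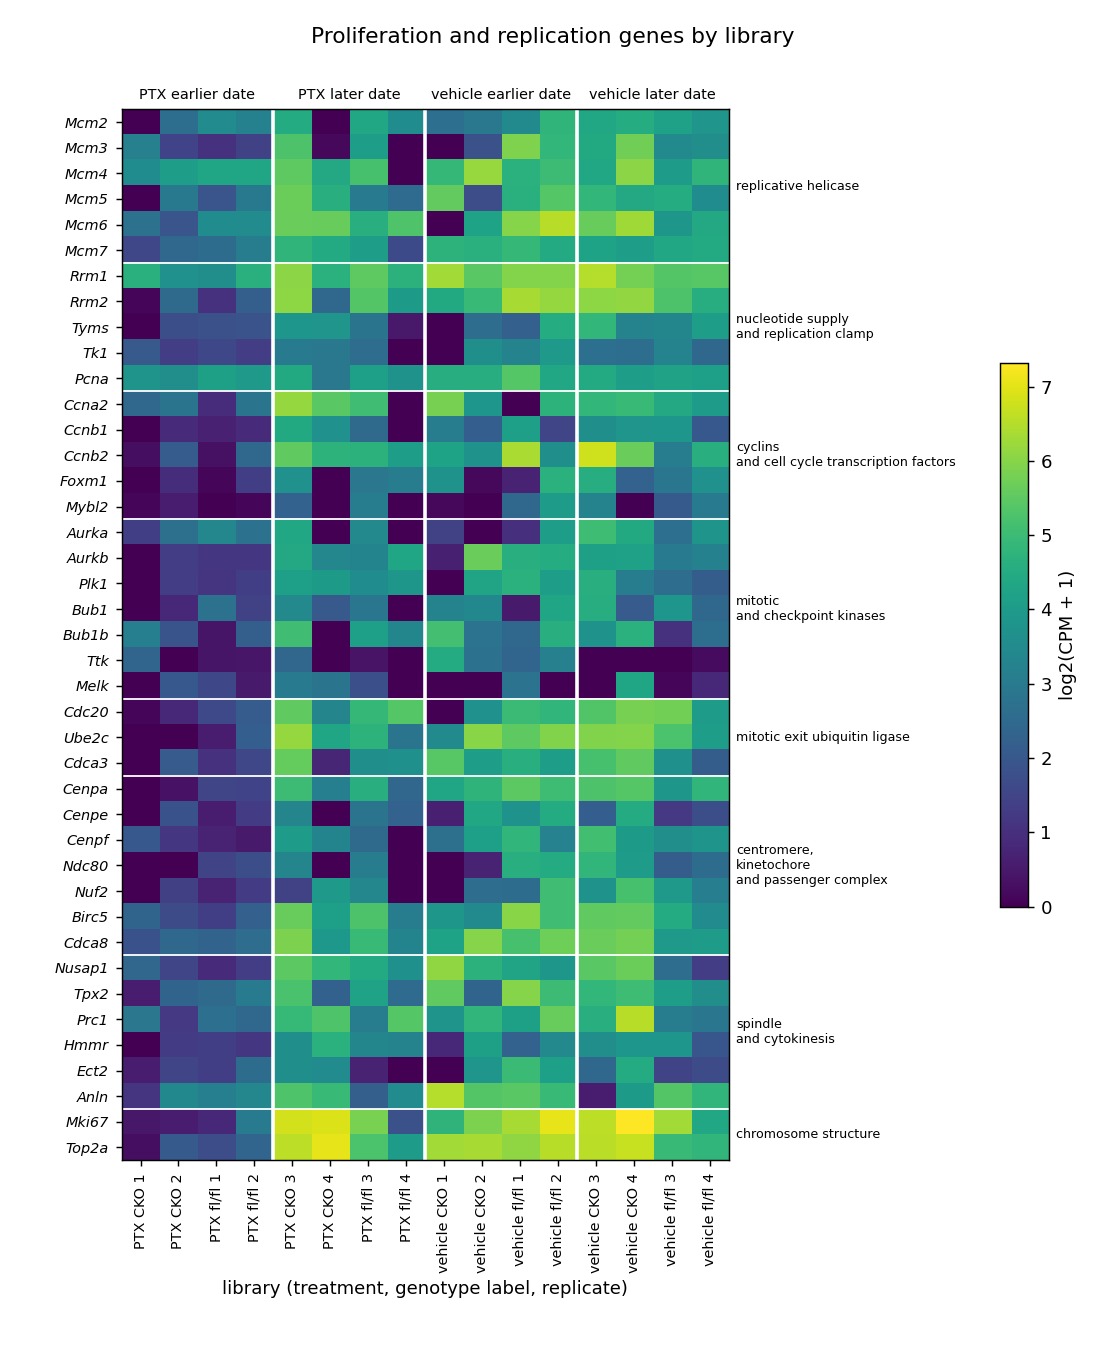
Level of each of the 41 members (rows, grouped by role) in each of the 16 libraries (columns, grouped by treatment and title date), as log2(CPM + 1) on a color scale that starts at 0. The 4 columns of the earlier PTX date are the darkest, and dark cells elsewhere are members at or near 0. Of the members, 14 were at 0 in PTX fl/fl replicate 4, 10 in vehicle CKO replicate 1 and 8 in PTX CKO replicate 4.

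Counts were uneven from library to library. Only 13 members had a count in every library, and the other 28 were at 0 in at least 1 and at most 6 libraries. PTX CKO replicate 1 had 16 members at 0 and PTX fl/fl replicate 4 had 14, whereas 4 libraries had none. Melk, a kinase of proliferating cells, was at 0 in 6 libraries and reached 19.2 CPM in vehicle CKO replicate 4. Ttk, the spindle checkpoint kinase, was also at 0 in 6 libraries and reached 21.6 CPM in vehicle CKO replicate 1. Over all genes tested, the biological coefficient of variation within groups was 93.9 percent.

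The first question was what PTX changed in each genotype label. At an adjusted p under 0.05, edgeR called no member higher or lower after PTX in either, which does not show that none changed. In fl/fl the summed level was 347 ± 251 CPM after PTX and 919 ± 385 CPM after vehicle, and in CKO 595 ± 602 and 1108 ± 325 CPM (SD, n = 4 each). In both labels the fitted log2 difference was negative for all 41 members, with a median of -1.48 in fl/fl and -0.99 in CKO, where the median over all genes was -0.01 and 0.02. The 41 values are not independent evidence, since they come from the same libraries, and both contrasts hold the earlier PTX libraries.

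In fl/fl, edgeR called 0 of 41 members at an adjusted p under 0.05, where it called 4.96 percent of all genes. At an unadjusted p under 0.05 it gave 1, Cenpf, a kinetochore protein, at -3.34 ± 1.24 (edgeR adjusted p = 0.142), which was also the 1 member called in DESeq2, and limma-voom with quality weights called 17, all lower. Over all genes DESeq2 called 4.88 percent lower and limma-voom 18.4 percent lower. In CKO edgeR called 0 of 41 against 2.58 percent of all genes, with 0 at an unadjusted p under 0.05, 0 in DESeq2 and 10 lower in limma-voom, where these called 3.27 and 10.1 percent of all genes lower. Over the mean of both labels edgeR called 0 of 41 against 16.7 percent of all genes, with 4 at an unadjusted p under 0.05, 2 called lower in DESeq2 and 26 in limma-voom, against 11.7 and 20 percent of all genes lower. The nearest to a call was Rrm1, the large subunit of ribonucleotide reductase, at -1.01 ± 0.36 (edgeR adjusted p = 0.0602). Cenpf stood at -2.33 ± 0.84 (edgeR adjusted p = 0.0674).

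Overlap between groups was counted as well. In fl/fl the 4 PTX values lay below the 4 vehicle values for 4 of 41 members, Mcm5, Mcm7, Cenpf and Anln, a share near the 7.8 percent found over all genes. In CKO this held for 0 members, against 4.54 percent of all genes, and over the 8 PTX and 8 vehicle libraries for 0 members, against 0.958 percent. Mcm7, a helicase subunit, gave 5.06, 7.55, 16.0 and 2.13 CPM in PTX fl/fl and 28.6, 21.2, 19.8 and 21.3 CPM in vehicle fl/fl. Its values in CKO overlapped, at 1.97, 4.46, 26.7 and 21.1 CPM after PTX and 25.6, 23.9, 17.9 and 16.0 CPM after vehicle.

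The calls depended on which PTX date was kept. Without the later PTX date, edgeR called 8 members lower in fl/fl, 9 in CKO and 19 over the mean of both labels, where the same fits called 7.92, 8.47 and 15.4 percent of all genes lower. Without the earlier PTX date it called 0 in each, and the median log2 difference of the members was -0.93 in fl/fl, -0.24 in CKO and -0.58 over both. Leaving out single libraries gave 1 call in fl/fl without PTX fl/fl replicate 3, and over the mean of both labels 2 without that library and 6 without PTX CKO replicate 3. Blocking on the replicate number gave 3 calls over the mean of both labels. Over all genes, leaving out single libraries gave 177 to 845 calls in fl/fl and 1544 to 2661 over both labels, in either direction. The share of all genes is not given for each of these fits, so their counts are not read as a result about the members.

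No member passed between the genotype labels. CKO against fl/fl under PTX gave 34 members positive and 7 negative, with a median log2 difference of 0.63. That median turned to -0.30 without PTX CKO replicate 3 and to -0.59 in limma-voom, and was 0.89 without the earlier PTX date, an alternative added after seeing the data that also called 0 members. edgeR called 0 of 41, against 0 percent of all genes. Under vehicle the median was 0.07 with 0 of 41 called, against 0.0211 percent of all genes. The interaction of genotype and treatment had a median of 0.35, which turned to -0.74 without PTX CKO replicate 3 and to -0.79 in limma-voom, and 0 of 41 called, against 0.00704 percent of all genes. In these 3 comparisons no member reached an unadjusted p under 0.05, and DESeq2 and limma-voom called none. Under vehicle the values of 1 member, Nusap1, did not overlap: 18.3, 13.8, 5.10 and 1.495 CPM in fl/fl and 68.2, 25.2, 42.2 and 49.9 CPM in CKO (log2 difference 2.26 ± 1.08, edgeR adjusted p = 1).

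**Figure D2:**
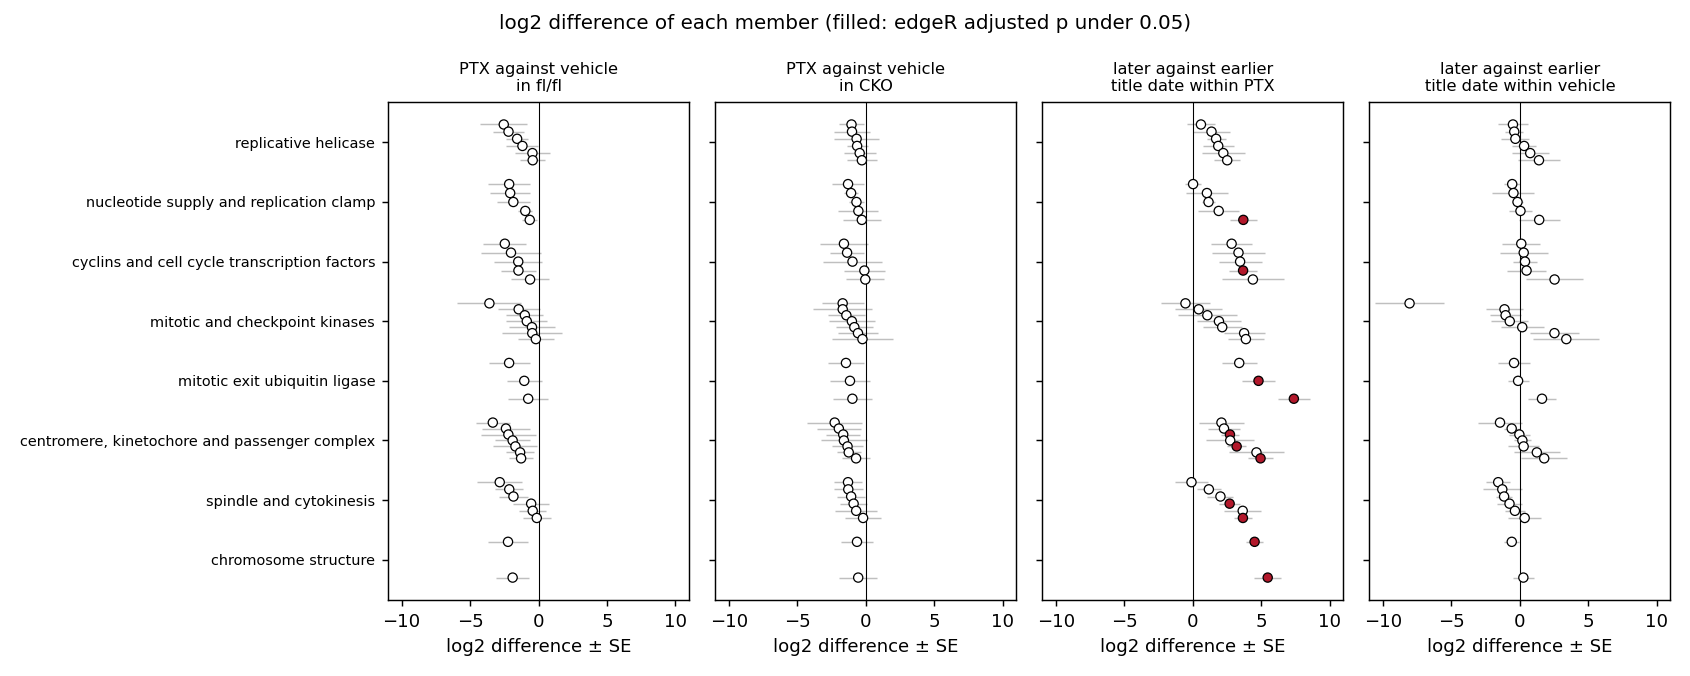
Fitted log2 difference ± SE of each of the 41 members, 1 point per gene grouped by role, in 4 comparisons (panels) on a shared axis, with filled points for an edgeR adjusted p under 0.05. All points lie left of 0 in both PTX against vehicle panels with none filled, 11 filled points lie right of 0 in the panel of dates within PTX, and none is filled for dates within vehicle.

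Between the 2 PTX dates the members differed. On the later date 11 of 41 members rose and none fell (26.8 percent of members), where edgeR called 8.93 percent of all genes in either direction and 7.13 percent higher. The fitted difference was positive for 39 members, with a median of 2.69 on the log2 scale, against -0.16 over all genes. For 14 of 41 members the 4 later values lay above the 4 earlier ones, against 9.75 percent of all genes. DESeq2 called 18 members and limma-voom 15, all higher, against 10.4 and 8.08 percent of all genes. The 11 calls comprised 1 of the 11 replication members and 10 of the 30 members of mitosis and its control, and the median log2 difference was 1.71 over the former and 3.27 over the latter. Whether these medians differ was not tested. The count of 11 fell to 5 without PTX fl/fl replicate 1, to 6 without PTX CKO replicate 3, and to 7 without PTX fl/fl replicate 2 or PTX CKO replicate 1. In the values below, the 4 libraries of a date are given in the order fl/fl, then CKO, and vehicle is given as its lowest, median and highest of 8 libraries.

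None of the 6 helicase subunits passed, with log2 differences from 0.60 to 2.52. Mcm6, the most abundant of them by counts, stood at 10.8, 10.54, 5.71 and 2.85 CPM on the earlier PTX date and 23.8, 38.2, 49.1 and 47.7 CPM on the later one (2.52 ± 0.94, edgeR adjusted p = 0.14). Its later values were all above its earlier ones, and the vehicle libraries covered both ranges, at 0, 34.2 and 90.9 CPM. Of nucleotide supply and the clamp, 1 of 5 rose. Rrm2, the small subunit of ribonucleotide reductase, stood at 1.08, 3.69, 0.0984 and 4.74 CPM on the earlier date and 39.9, 14.7, 66.8 and 4.53 CPM on the later one, a rise of 3.69 ± 0.97 (edgeR adjusted p = 0.0311). PTX CKO replicate 4 stayed within the earlier range, and vehicle gave 20.6, 52.0 and 80.5 CPM. Rrm1 stood at 11.3, 23.8, 23.9 and 12.04 CPM and 44.2, 25.0, 65.7 and 24.6 CPM, above on the later date in all 4 libraries but not past the threshold (1.15 ± 0.44, edgeR adjusted p = 0.152), and vehicle gave 39.7, 57.5 and 89.0 CPM. Pcna, the sliding clamp of the polymerase, had the difference closest to 0 of all 41 members, at 16.9, 14.6, 12.9 and 11.3 CPM and 16.6, 12.2, 20.7 and 6.67 CPM (0.03 ± 0.57).

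Of the cyclins and cell cycle transcription factors 1 of 5 rose, and the other 4 gave 2.84 to 4.39 on the log2 scale without passing. Ccnb2, cyclin B2 of mitotic entry, stood at 0.249, 4.57, 0.197 and 3.41 CPM on the earlier date and 25.1, 15.73, 44.9 and 25.4 CPM on the later one, a rise of 3.68 ± 1.02 (edgeR adjusted p = 0.0403). Its later values did not overlap with the earlier ones, while vehicle ran from below the later PTX values to above them, at 7.41, 20.8 and 109 CPM. None of the 7 mitotic and checkpoint kinases passed (-0.53 to 3.88). Aurkb, the kinase of the chromosomal passenger complex, stood at 1.25, 1.23, 0 and 1.52 CPM and 8.78, 19.1, 20.5 and 9.54 CPM, with no overlap (3.88 ± 1.29, edgeR adjusted p = 0.091), and vehicle gave 0.560, 17.2 and 48.6 CPM. Plk1, the Polo-like kinase of mitosis, did not overlap either, at 1.16, 1.58, 0 and 1.52 CPM and 10.8, 13.6, 16.7 and 15.02 CPM (3.75 ± 1.5, edgeR adjusted p = 0.172).

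Of the ubiquitin ligase genes 2 of 3 rose, both of the anaphase-promoting complex that ends mitosis. Cdca3, an adaptor of mitotic entry and not of exit, did not pass (3.40 ± 1.26, edgeR adjusted p = 0.138). Ube2c, the conjugating enzyme of the anaphase-promoting complex, stood at 0.498, 3.51, 0 and 0 CPM on the earlier date and 25.6, 5.99, 70.3 and 18.9 CPM on the later one. Its rise of 7.38 ± 1.16 (edgeR adjusted p = 0.00118) rests on 0 counts in both earlier CKO libraries, so its fitted size depends on the prior count and is no bound, and the means were 1.00 and 30.2 CPM. Vehicle gave 10.4, 52.2 and 64.1 CPM, with vehicle CKO replicate 1 the lowest of the 8. Cdc20, an activator of the same complex, stood at 2.07, 3.34, 0.0984 and 0.759 CPM and 28.5, 40.9, 44.8 and 9.06 CPM, a rise of 4.80 ± 1.23 (edgeR adjusted p = 0.0263). The dates did not overlap for either gene, and Cdc20 was at 0 in vehicle CKO replicate 1, with 0, 28.8 and 55.5 CPM over the vehicle libraries.

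In the centromere, kinetochore and passenger complex 3 of 7 rose. Cenpa, the histone H3 variant of centromeres, stood at 1.91, 1.76, 0 and 0.284 CPM on the earlier date and 23.6, 4.36, 31.3 and 7.99 CPM on the later one, a rise of 4.95 ± 0.91 (edgeR adjusted p = 0.00297). Vehicle, at 13.7, 29.7 and 43.9 CPM, lay wholly above the earlier PTX date. Birc5 (survivin), a passenger complex subunit, stood at 1.58, 3.78, 4.13 and 2.28 CPM and 38.1, 7.61, 48.1 and 16.4 CPM, a rise of 3.21 ± 0.69 (edgeR adjusted p = 0.00902), and vehicle gave 10.1, 27.4 and 64.0 CPM. Cdca8 (borealin), of the same complex, stood at 3.98, 5.18, 2.56 and 4.46 CPM and 30.2, 8.93, 57.3 and 14.1 CPM, a rise of 2.72 ± 0.64 (edgeR adjusted p = 0.0156), and vehicle gave 14.6, 42.4 and 63.0 CPM. For all 3 genes the later values lay above the earlier ones, with PTX CKO replicate 3 the highest of the 4 and PTX fl/fl replicate 4 the lowest.

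Of the spindle and cytokinesis genes 2 of 6 rose. Nusap1, a spindle microtubule-binding protein, stood at 0.830, 1.49, 4.33 and 1.90 CPM on the earlier date and 21.4, 11.8, 43.1 and 27.8 CPM on the later one, a rise of 3.66 ± 0.67 (edgeR adjusted p = 0.00261), and vehicle gave 1.495, 21.8 and 68.2 CPM. Prc1, which bundles microtubules of the spindle midzone, stood at 5.39, 4.48, 6.49 and 1.33 CPM and 7.45, 41.2, 28.6 and 38.1 CPM, a rise of 2.70 ± 0.77 (edgeR adjusted p = 0.0457), and vehicle gave 6.39, 19.8 and 91.8 CPM. For Prc1 the later value of PTX fl/fl replicate 3 was close to the earlier ones, and for both genes the dates did not overlap. Anln (anillin), a scaffold of the cytokinetic ring and the most abundant of this role by counts, stood at 7.88, 9.40, 1.18 and 9.77 CPM and 3.67, 10.6, 38.5 and 29.6 CPM and overlapped (1.18 ± 0.85, edgeR adjusted p = 0.509), with 0.511, 34.7 and 89.6 CPM in vehicle.

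Both genes of chromosome structure rose. Top2a, the topoisomerase that untangles sister chromatids, stood at 2.32, 4.21, 0.197 and 3.22 CPM on the earlier date and 36.6, 15.6, 96.0 and 131 CPM on the later one, a rise of 4.52 ± 0.62 (edgeR adjusted p = 2.8e-04), and vehicle gave 27.2, 79.8 and 104 CPM. Mki67 (Ki-67), which coats mitotic chromosomes and is the usual mark of cycling cells, stood at 0.747, 6.94, 0.394 and 0.474 CPM and 56.1, 2.54, 111 and 120.4 CPM, a rise of 5.47 ± 0.98 (edgeR adjusted p = 0.00236), and vehicle gave 20.0, 79.7 and 159 CPM. Top2a did not overlap between the dates, whereas Mki67 did, since PTX fl/fl replicate 4 on the later date was below PTX fl/fl replicate 2 on the earlier one. The 26 members outside the 15 named by rule had mean levels of 0.165 to 16.0 CPM on the earlier PTX date and 1.16 to 36.6 CPM on the later one, and their smallest edgeR adjusted p was 0.134.

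**Figure D3:**
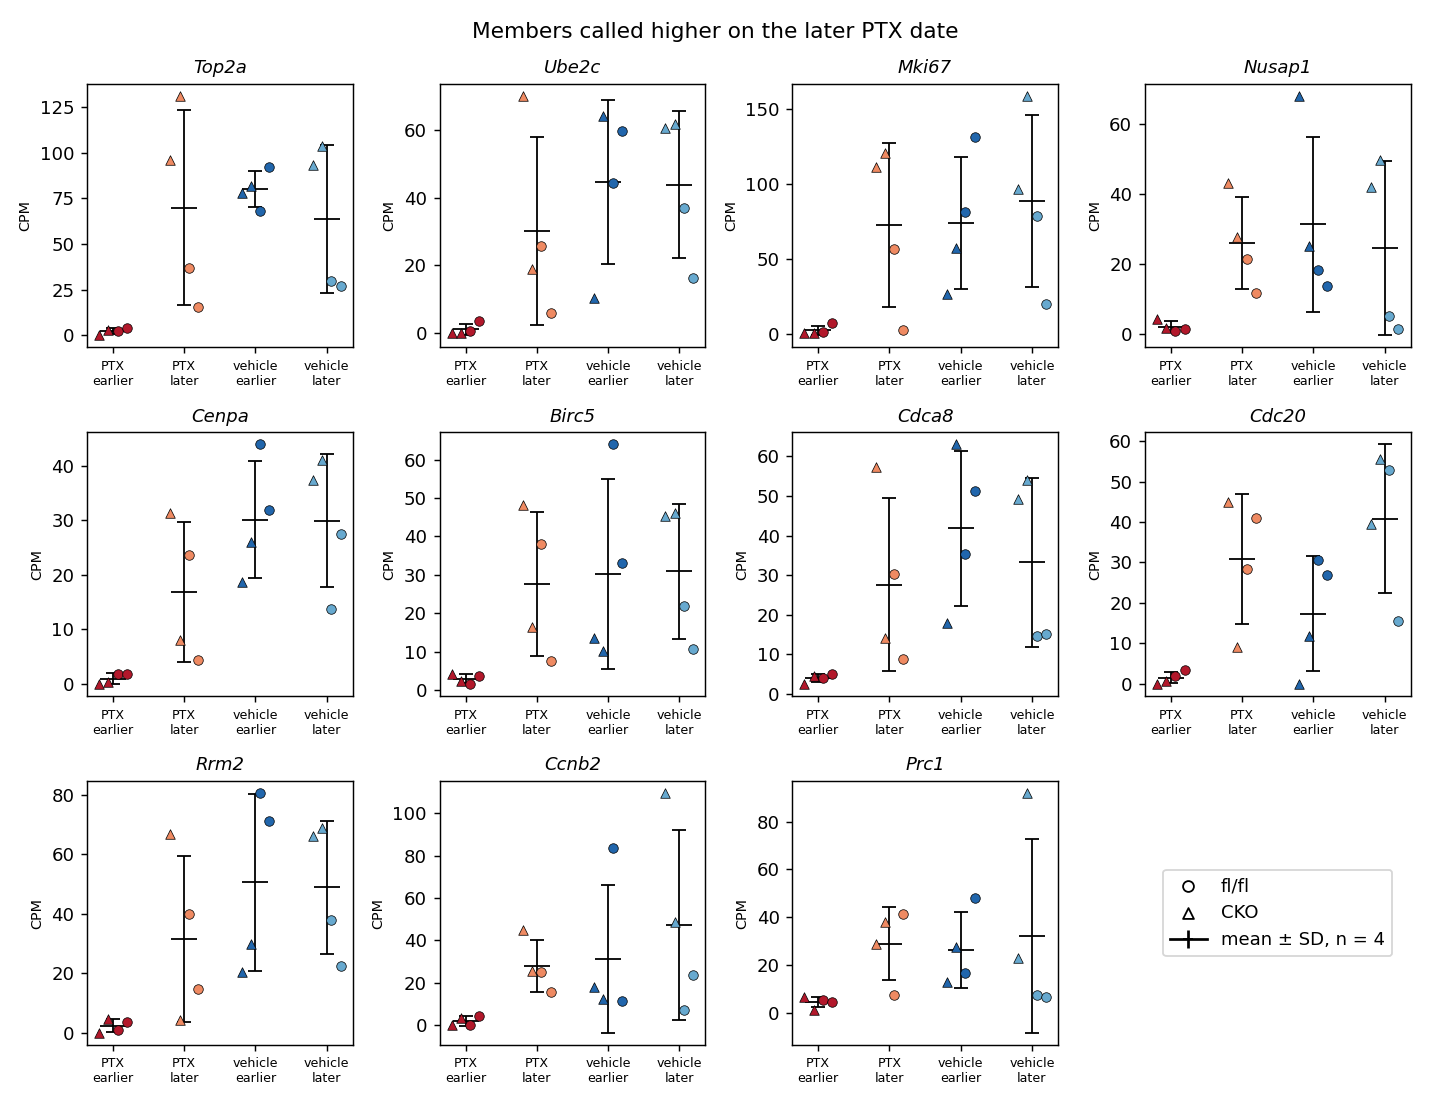
CPM of the 11 members that rose from the earlier to the later PTX date, 1 panel per gene with its own axis, 1 point per library (circles fl/fl, triangles CKO), and bars for the mean ± SD of 4 libraries of 1 treatment and title date. The earlier PTX points lie below all later ones in every panel but those of Rrm2 and Mki67, and in 7 of the 11 panels at least 1 later PTX point lies below all vehicle points.

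The calls of Top2a, Ube2c, Mki67, Nusap1 and Cenpa remained in all 14 alternatives run, of which 8 left out a PTX library each, with adjusted p-values of at most 0.0322 in edgeR, DESeq2 or limma-voom. Birc5 lost its call without PTX fl/fl replicate 1 or PTX CKO replicate 2, with an adjusted p of up to 0.0733. Cdca8, Cdc20, Ccnb2, Rrm2 and Prc1 lost theirs in 5 to 7 of the 14, with adjusted p-values of up to 0.1, 0.156, 0.144, 0.169 and 0.217. Each of these 5 lost it without PTX fl/fl replicate 1 and without PTX CKO replicate 3, and Prc1 also under upper-quartile scaling.

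Between the vehicle dates edgeR called 0 of 41 members, against 0.162 percent of all genes, with a median log2 difference of -0.04. At an unadjusted p under 0.05 edgeR gave 1, Ttk, which DESeq2 called lower as well, where it called 0.33 percent of all genes lower, and limma-voom called 0. Without vehicle CKO replicate 2 the member that stood out was Mcm6 and not Ttk, with a log2 difference of 5.12. That fit rests on 0 counts of Mcm6 in vehicle CKO replicate 1, the only library left of its genotype and date. Ttk stood at 4.26, 8.07, 21.6 and 5.75 CPM on the earlier vehicle date, and on the later one it was at 0 in 3 libraries and at 0.166 CPM (2 counts) in the other. Summed over the members the vehicle dates gave 1041 ± 241 and 987 ± 467 CPM (SD, n = 4 each). The difference between the date effects of PTX and vehicle was a test added after seeing the data. Over all genes it passed for 8.06 percent in either direction, and the share higher alone was not computed. Of the members it passed for 6 of 41, all higher. These were Ube2c (7.51 ± 1.39), Mki67 (5.22 ± 1.21), Top2a (5.11 ± 0.80), Cenpa (4.98 ± 1.15), Nusap1 (4.81 ± 0.89) and Cdca8 (3.31 ± 0.86), with edgeR adjusted p-values of 0.00115 to 0.0322.

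The balance among the members also differed by date. The 11 replication members took 57.2, 51.9, 61.3 and 50.5 percent of the summed member CPM in the earlier PTX libraries, and 22.1 to 39.6 percent in the other 12. Mki67 and Top2a together took 2.12, 5.79, 0.544 and 2.72 percent in the earlier PTX libraries, and 5.16 to 33.2 percent in the others. The first share did not overlap between the earlier PTX date and the rest. The second overlapped, since PTX fl/fl replicate 4 gave the 5.16 percent.

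**Figure D4:**
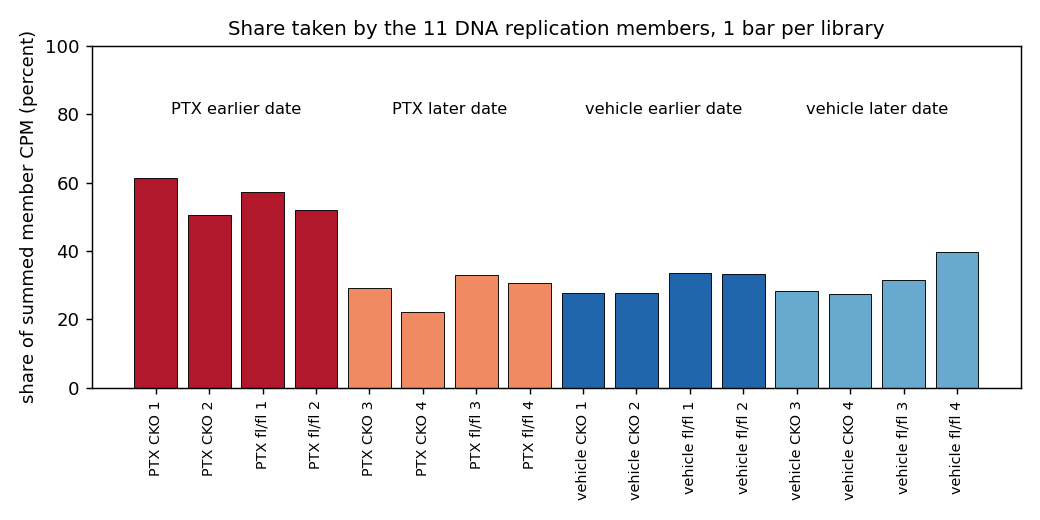
Percent of the summed CPM of the 41 members taken by the 11 members of DNA replication, 1 bar per library from 0 to 100, colored by treatment and title date. The 4 bars of the earlier PTX date stand at 50.5 to 61.3 percent, above all 12 others.

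Other cell cycle genes were counted in 4 lists, to be read against the 7.13 percent of all genes that rose between the PTX dates. Between the PTX dates, 1 of 47 further replication and G1/S genes rose, the replication-linked chromatin gene Uhrf1 (5.36 ± 1.46). Of 60 further mitosis genes 5 rose, including the chromatin protein gene Hmgb2 (4.21 ± 0.50), the nuclear lamina gene Lmnb1 (4.98 ± 0.61) and the histone gene H2afx (1.52 ± 0.30). Of 6 genes of G1 cyclins and their kinases 1 rose, cyclin D3 (Ccnd3, 2.57 ± 0.30), from 23.7 to 42.6 CPM on the earlier date to 96.6 to 318 CPM on the later one. Of 18 cell cycle inhibitors and p53 targets 6 rose, among them the antiproliferative genes Btg1 (3.53 ± 0.26), Btg2 (3.19 ± 0.27) and the growth arrest gene Gadd45a (2.42 ± 0.33). No gene of the 4 lists fell. The edgeR adjusted p-values of these 8 genes ran from 1.68e-06 to 0.0373.

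After PTX against vehicle, edgeR called 0 genes of these 4 lists in fl/fl and 0 in CKO. At an unadjusted p under 0.05 it gave 4 of 47, 2 of 60, 4 of 6 and 4 of 18 in fl/fl, and 2, 2, 1 and 7 in CKO. For the same lists DESeq2 called 2, 1, 1 and 2 lower in fl/fl and 1, 0, 1 and 3 lower in CKO, and limma-voom 4, 14, 6 and 10, and 2, 13, 2 and 8. Over all genes DESeq2 called 4.88 percent lower in fl/fl and 3.27 percent in CKO, and limma-voom 18.4 and 10.1 percent. The share of all genes called higher by these tools is not given, so the higher calls are not read as a result about the lists. Higher calls were 1 replication and 1 mitosis gene in CKO by DESeq2, and in limma-voom 2 replication genes and 1 mitosis gene in fl/fl and 1 replication gene in CKO. Over the mean of both labels 1 of 47, 0 of 60, 1 of 6 and 5 of 18 fell in edgeR, where 6.19 percent of all genes fell. DESeq2 called 3, 5, 5 and 9 of them lower and 1 mitosis gene higher. Limma-voom called 8, 23, 5 and 15 lower and 2, 1, 0 and 1 higher. Over all genes DESeq2 called 11.7 percent lower and limma-voom 20 percent. The genes that fell in edgeR included Pole2, a subunit of DNA polymerase epsilon (-5.65 ± 1.45, edgeR adjusted p = 0.0145), Cdk4, the kinase of D-type cyclins (-0.75 ± 0.19, edgeR adjusted p = 0.0119), and the inhibitor genes Cdkn1a (-0.997 ± 0.257, edgeR adjusted p = 0.0148) and Cdkn1c (-4.80 ± 1.38, edgeR adjusted p = 0.0258).

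The sorted material held RNA of several cell types, and in such bulk samples fewer cells of a type and less RNA per cell cannot be told apart. All 12 sensory neuron markers had counts on every date, with a sum of 14060 to 19180 CPM on the earlier PTX date, 7126 to 10180 on the later one, and 918 to 5723 in vehicle libraries. After PTX against vehicle edgeR called 8 of the 12 higher in fl/fl, 6 in CKO and 11 over both labels. It called 4.96, 2.58 and 16.7 percent of all genes there in either direction. On the later PTX date 5 of the 12 were lower, where 8.93 percent of all genes were called in either direction. All 13 markers of early neutrophil precursors had counts on every date too. They summed to 102.5 to 3775 CPM on the earlier PTX date, 12930 to 53000 on the later one, and 26770 to 87490 in vehicle libraries. Between the PTX dates 12 of these 13 rose, among them the granule protein genes Ltf (5.87 ± 0.41) and Ngp (5.56 ± 0.43), and Chi3l3 (5.73 ± 0.47), with edgeR adjusted p-values of at most 3.58e-06. After PTX against vehicle edgeR called 0 of 13 in fl/fl and in CKO, with 0 at an unadjusted p under 0.05, 0 in DESeq2 and 12 lower in limma-voom in each. Limma-voom called 18.4 percent of all genes lower in fl/fl and 10.1 percent in CKO. Ngp and Ltf made up most of the sum of the 13 markers in every library. The sum therefore follows them more than the others and does not measure dividing cells. Ms4a3, another of the 13, overlapped between the PTX dates, and so did Elane, Mpo, Prtn3 and Fcnb. Ms4a3 stood at 18.7, 8.255, 16.8 and 17.0 CPM on the earlier date and 36.1, 1.22, 84.8 and 9.42 CPM on the later one. In PTX fl/fl replicate 4, of the later date, Elane, Mpo, Prtn3 and Fcnb were at 0.102, 0.304, 0.102 and 0 CPM. These values lay within or below the range of the earlier date. The part of early neutrophil precursors in the members' result was not tested.

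The members' sum is set beside these markers library by library. For each 1000 CPM of early neutrophil markers, the members summed to 16.3 to 29.3 CPM in the 12 libraries outside the earlier PTX date. In the earlier PTX libraries the ratio was 79.9 and 51.1 in fl/fl and 1059 and 623.6 in CKO. Elane and Mpo, granule enzymes of the earliest of these precursors, were at 0.102 and 0.304 CPM in PTX fl/fl replicate 4, where Ltf was at 2966 CPM and Mki67 at 2.54 CPM. In PTX CKO replicate 3 Elane and Mpo reached 766 and 2598 CPM and Mki67 111 CPM.

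**Figure D5:**
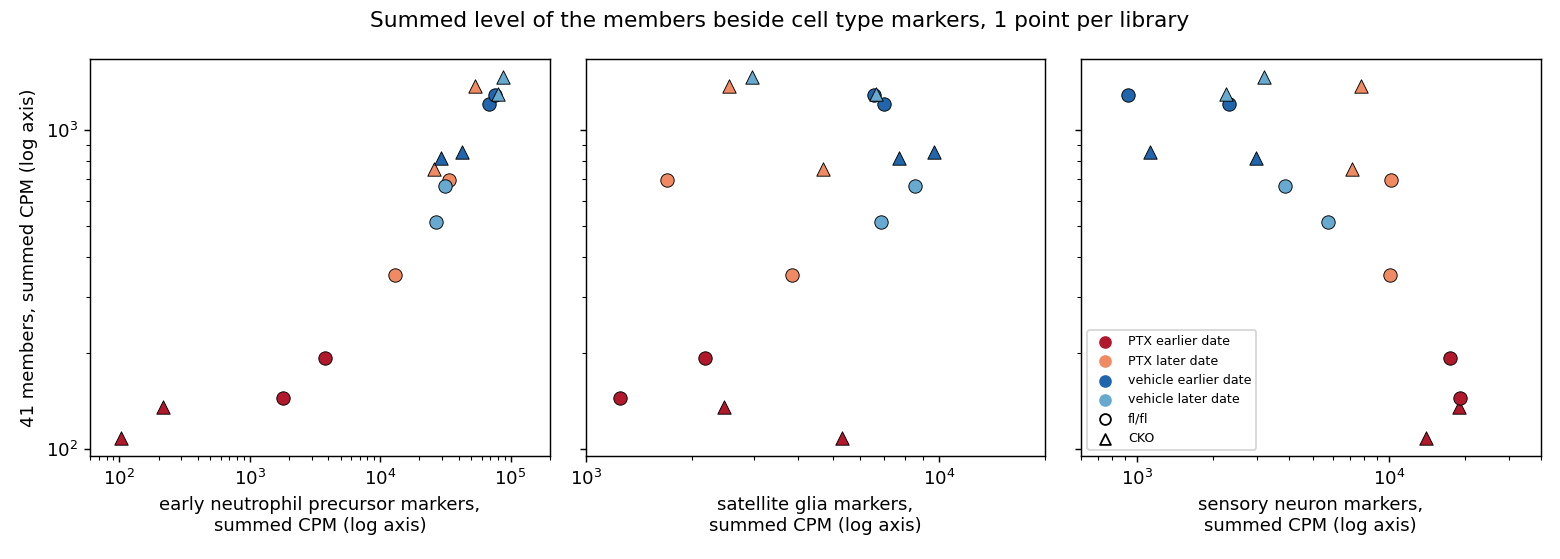
Summed CPM of the 41 members (vertical log axis) against the summed CPM of the markers of early neutrophil precursors, satellite glia and sensory neurons (3 panels, horizontal log axes), 1 point per library, colored by treatment and title date. In the first panel the 4 earlier PTX points lie at the lower left, apart from the other 12, and in the satellite glia panel they overlap horizontally with the other PTX points.

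Glial markers did not separate the PTX dates. The 10 satellite glia markers, none at 0 throughout a date, summed to 1254 to 5321 CPM on the earlier PTX date, 1702 to 4687 on the later one and 2959 to 9683 in vehicle libraries. The 10 myelinating Schwann cell markers summed to 2117 to 3249, 1857 to 3214 and 6569 to 9752 CPM. Between the PTX dates edgeR called 0 of 10 in either list, with 1 in each at an unadjusted p under 0.05. DESeq2 and limma-voom each called 0 in satellite glia and 1, lower on the later date, in Schwann cells. After PTX against vehicle 4 and 9 fell in fl/fl and 1 and 5 in CKO, where edgeR called 1.76 and 0.359 percent of all genes lower. DESeq2 called 7 and 9 lower in fl/fl and 2 and 10 in CKO, and limma-voom 9 and 9, and 3 and 10. Over all genes DESeq2 called 4.88 percent lower in fl/fl and 3.27 percent in CKO, and limma-voom 18.4 and 10.1 percent. The 6 fibroblast markers, none at 0 throughout a date, summed to 94.55 to 277 CPM on the earlier PTX date, 159.5 to 427 on the later one and 428 to 2880 in vehicle libraries, so PTX and vehicle libraries did not overlap. Of these 4 fell in fl/fl, 3 in CKO and 5 over both labels, among them the collagen genes Col1a2 (-2.51 ± 0.35 over both) and Col3a1 (-2.99 ± 0.46), and Lum, the gene of a collagen-binding proteoglycan (-3.57 ± 0.40), with edgeR adjusted p-values of at most 5.23e-04. Between the PTX dates 1 of 6 rose. The 8 endothelial markers, of which Tek was at 0 throughout the later PTX date, summed to 23.7 to 56.9, 38.2 to 77.5 and 29.6 to 196.5 CPM. Of these 0 were called in fl/fl or CKO by edgeR, with 1 in each at an unadjusted p under 0.05, 0 in DESeq2, and 2 lower in fl/fl and 0 in CKO in limma-voom. The earlier PTX library with the most satellite glia RNA, PTX CKO replicate 1 at 5321 CPM, had the lowest sum of the members (109 CPM).

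Other markers were as follows. The 10 mature neutrophil markers summed to 220 to 6921 CPM on the earlier PTX date, 42910 to 75730 on the later one and 47360 to 157100 in vehicle libraries, and the 10 macrophage markers to 19.5 to 55.7, 240 to 583 and 447 to 2978 CPM. Between the PTX dates 10 of 10 and 5 of 10 rose. After PTX against vehicle edgeR called 0 mature neutrophil markers in fl/fl, in CKO or over both labels. Of the macrophage markers 2 fell in fl/fl, 0 in CKO and 7 over both labels, where 1.76, 0.359 and 6.19 percent of all genes fell. Of 12 erythroid precursor markers 5 to 7 were at 0 in every library of a date, Hbb-b1 and Hba-a1 among them throughout, and the rest summed to 57.9 to 140 CPM. Alignments that were not unique, 39.5 to 44.2 percent in these libraries, were assigned to no gene. A marker at 0 therefore does not by itself show that its RNA was absent, and which markers this affected was not tested. Of 12 B cell precursor markers 6 to 8 were at 0 in every library of a date, Igll1, Dntt, Rag1 and Pax5 among them throughout, and the rest summed to 112 to 217 CPM in PTX and 32.3 to 79.6 CPM in vehicle libraries. Ebf1, a transcription factor of B cells that other cells also express, rose after PTX in fl/fl (2.33 ± 0.48, edgeR adjusted p = 0.0133) and in CKO (2.17 ± 0.48, edgeR adjusted p = 0.0266). At 107 to 216 CPM in PTX libraries, Ebf1 made up nearly all of the B cell precursor sum there. Tfrc and Car2 made up most of the erythroid precursor sum in every library. T cell markers summed to at most 33.1 CPM in any library. The part of these cells in the result was not tested.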

How the data were processed

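Poly(A) RNA of sorted dorsal root ganglion cells was sequenced in 16 libraries with a stranded kit and 50-base single reads, per the labels' protocols. Per the submitters' processing notes, the authors used bcl2fastq, TopHat2, HTSeq and the mm9 build. Versions and the strand setting of counting are not given in the sources used here. What the authors deposited is a count of reads for each of 22609 genes in each library, not normalized. The 5 summary lines of each file were left out. The share of alignments assigned to a gene was 32.9 to 43.5 percent. Libraries held 7906504 to 11668007 gene counts, and of 24 pairs of libraries within groups the most alike still differed with a chi-square of 19.5 per degree of freedom, so none was a repeat.

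Groups and title dates were taken from the labels. Counts were filtered with filterByExpr, put on the TMM scale and tested in edgeR 4.0.16 under R 4.3.3 (quasi-likelihood, robust, two-sided, all 16 libraries, Benjamini-Hochberg over 14200 genes, threshold 0.05). Treatment and genotype were fitted over 4 groups with 12 residual degrees of freedom, and dates over 8 cells of treatment, genotype and date with 8. The members and lists were chosen with earlier results of these data known. Members with an edgeR call in any comparison and the most abundant member of each of 8 roles were named with their value in every library, and of each other list up to 3 called genes, or the 2 most abundant where none was called, of which the text gives part. Others were added where a sentence singles them out (Cenpf, Mcm7, Pcna, Plk1, Cdca3, Ttk, Melk, Elane, Mpo, Ms4a3, Prtn3, Fcnb), chosen after their values were seen. The analysis was tested on simulated data that were less variable than these libraries. Only genes above a floor on mean CPM were changed there, by large log2 differences. That test does not measure the power for the members. Alternatives were 2 other scalings (RLE, upper-quartile), omission of the filter or its replacement by 5 CPM in at least 4 libraries, DESeq2 1.42.0, limma-voom with quality weights (limma 3.58.1), the compared groups alone, a replicate block, title date as a factor, either PTX date left out, and each library left out. The difference of the date effects, and CKO against fl/fl under PTX without the earlier date, were added after seeing the data. Promoters came from RefSeq (GRCm38.p6), where 36 of 41 members matched. For CKO against fl/fl under PTX the deviations of libraries with the same replicate number correlated at 0.372, 0.399, 0.387 and 0.217, all above 0.1. Libraries with the same number also share a title date there. The correlations cannot be told apart from an effect of the date and do not show that single libraries were paired. In the other comparisons the correlations did not all pass 0.1.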

Additional observations from a re-analysis of the deposited data

Results flagged for a closer look

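Among 64 sets of 4 libraries, each of 1 group and either 1 named member or the summed members, 6 held a library far from the other 3 by Dixon's test, which flags about 1 in 20 sets by chance. In PTX fl/fl, replicate 3 was the far library for Mki67 (56.1 CPM), Cenpa (23.6 CPM) and Birc5 (38.1 CPM), and replicate 4 for Prc1 (41.2 CPM), each the highest of its group. In PTX CKO, replicate 3 was the highest for Rrm2 (66.8 CPM). In vehicle CKO, replicate 1 was the lowest for Ube2c (10.4 CPM). The 5 high values are all of the later PTX date, whose libraries share their group with those of the earlier date.

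The effect of the later against the earlier title date differed between PTX and vehicle for 6 members by a test of the difference itself in edgeR. The log2 difference of the date effects was 7.51 for Ube2c, 5.22 for Mki67, 5.11 for Top2a, 4.98 for Cenpa, 4.81 for Nusap1 and 3.31 for Cdca8. This test was chosen after seeing the data.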

How the results depend on the processing

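The median log2 difference of the members kept its sign under every alternative run in PTX against vehicle (fl/fl -2.66 to -0.93, CKO -3.16 to -0.24) and between the PTX dates (1.46 to 4.52). It changed sign in CKO against fl/fl under PTX (0.63; -0.30 to 1.46 when single libraries were left out and -0.59 to 0.89 otherwise), under vehicle (0.07; -0.15 to 0.39) and for the interaction (0.35; -0.79 to 1.02). The counts of members called at an adjusted p under 0.05 also varied. For PTX against vehicle, where edgeR called 0, the counts in fl/fl were 1 with DESeq2, 17 with limma-voom, 1 with only the groups compared and 8 without the later PTX date, and 0 to 1 when single libraries were left out. In CKO they were 10 with limma-voom and 9 without the later PTX date. Over both labels they were 2 with DESeq2, 26 with limma-voom, 3 with the replicate block, 2 with title date as a factor and 19 without the later PTX date, and 0 to 6 when single libraries were left out (2 without PTX fl/fl replicate 3, 6 without PTX CKO replicate 3). The replicate block gave 0 members in fl/fl, in CKO and by genotype, and over all genes it gave 361 in fl/fl and 126 in CKO, where the numbers did not pair the libraries.

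Between the PTX dates the count of 11 was 18 with DESeq2 and 5 to 10 when single libraries were left out (5 without PTX fl/fl replicate 1, 7 without PTX fl/fl replicate 2 or PTX CKO replicate 1, 6 without PTX CKO replicate 3). Between the vehicle dates it was 1 with DESeq2 and 0 to 1 when single libraries were left out. The difference of the date effects gave 10 with DESeq2 and 4 to 9 when single libraries were left out, against 6. Genes called over the whole table ranged, other than for single libraries, from 4 to 5283 in fl/fl (704), 0 to 2686 in CKO (366), 224 to 6461 over both (2378), 0 to 10 and 0 to 83 by genotype under PTX and vehicle (0 and 3), 0 to 50 for the interaction (1), 1232 to 1973 between PTX dates (1268) and 0 to 433 between vehicle dates (23). With single libraries left out, genes called after PTX against vehicle ranged from 177 to 845 in fl/fl and 30 to 549 in CKO. Over both labels they ranged from 1544 to 2661. Upper-quartile scaling moved the median of all genes between the PTX dates to -0.226, from -0.16, and RLE scaling to -0.105. The cause of these differences was not tested. Members at a few counts in a library limit what single genes can show.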

Other observations

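Beside the members, Elane, the neutrophil elastase gene of early precursors, stood at 128, 0.102, 766 and 124 CPM in PTX fl/fl replicates 3 and 4 and PTX CKO replicates 3 and 4. Ltf, the lactoferrin gene, stood at 7438, 2966, 11840 and 6240 CPM in the same libraries, in the same order from high to low. Mki67 stood at 56.1, 2.54, 111 and 120.4 CPM, where PTX CKO replicate 4 and not replicate 3 was the highest. PTX fl/fl replicate 4 was the lowest of these 4 libraries for all 3 genes. In that library the 41 members summed to 352 CPM, and 14 of them were at 0 counts.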
